A study of Mus musculus with 2 samples.

Results

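Sites of the transcription factor KLF6 were examined at 6 genes of synaptic adhesion and synapse organisation, Nlgn1, Lrrtm4, Cntnap5b, Lrrn3, Nxph1 and Cbln2, in chromatin of a mouse hepatocellular carcinoma cell line. The sites of these genes were selected on the gene symbol given in the deposited site lists, and the genes themselves were picked on the lists, because neuronal adhesion genes in gene-poor stretches recurred there. Their number of sites and their distances are therefore descriptions of how they were chosen. Together they held 11 of the 1643 listed sites, 7 of 742 in experiment 1 and 4 of 901 in experiment 2.

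The study comprised 1 precipitated and 1 input sample of the same line, grown in serum-containing medium. Both groups were transfected with a plasmid that expressed full-length KLF6 joined to a V5 tag; the promoter of that plasmid is not given in the sources used here. The precipitated sample was taken with an antibody to V5, and the input was DNA isolated without precipitation. The labels name 3 sequencing files for each sample, read here as a first experiment with a repeat run and a second experiment, whereas the series' design speaks of 2 libraries of each kind. The authors called sites in each experiment against input, so the lists carry no values per library. No error across libraries can therefore be given for a site, and no test over samples was possible. KLF6 in these cells was tagged and introduced, a precipitation from cells without the tag was not analysed here, and no RNA was measured in the files used here, so neither the liver origin of the line nor the activity of the 6 genes could be checked against markers.

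KLF6 is a zinc finger protein of the Krüppel-like family, which binds GC-rich and CACCC-like DNA and is studied in liver as a regulator of growth and injury responses. Synapses are joined by adhesion proteins that span the cleft: presynaptic neurexins bind partners on the receiving cell, and the choice of partner helps to set the kind of synapse. Neuroligin 1 (Nlgn1) and LRRTM4 (Lrrtm4) are such postsynaptic partners, neurexophilin 1 (Nxph1) is a secreted glycoprotein that binds alpha-neurexins, and cerebellin 2 (Cbln2) is a secreted C1q-family protein that binds neurexins from within the cleft. Cntnap5b encodes a contactin-associated protein of the neurexin superfamily, and Lrrn3 a neuronal leucine-rich repeat membrane protein.

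The sites lay far from the gene starts, and most were weak. The nearest summit was 120 kb and the farthest 496 kb from the start of the assigned gene, so that all 11 lay beyond 100 kb, against 36.5% of all sites in experiment 1 and 30.6% in experiment 2. As the genes were picked in gene-poor stretches, this contrast describes that choice and is no finding about them. Of the 11 sites, 6 lay upstream of the gene, 3 downstream and 2 inside it. Experiment 1 had 1 of its 7 sites inside the gene, where 13.3% of all its sites were, and experiment 2 had 1 of its 4, where 18.4% were. Per the lists, the assigned gene was the one with the nearest start. Of the 6 genes, 3 had sites in experiment 1 alone, 1 in experiment 2 alone and 2, Cntnap5b and Cbln2, in both.

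**Figure D1:**
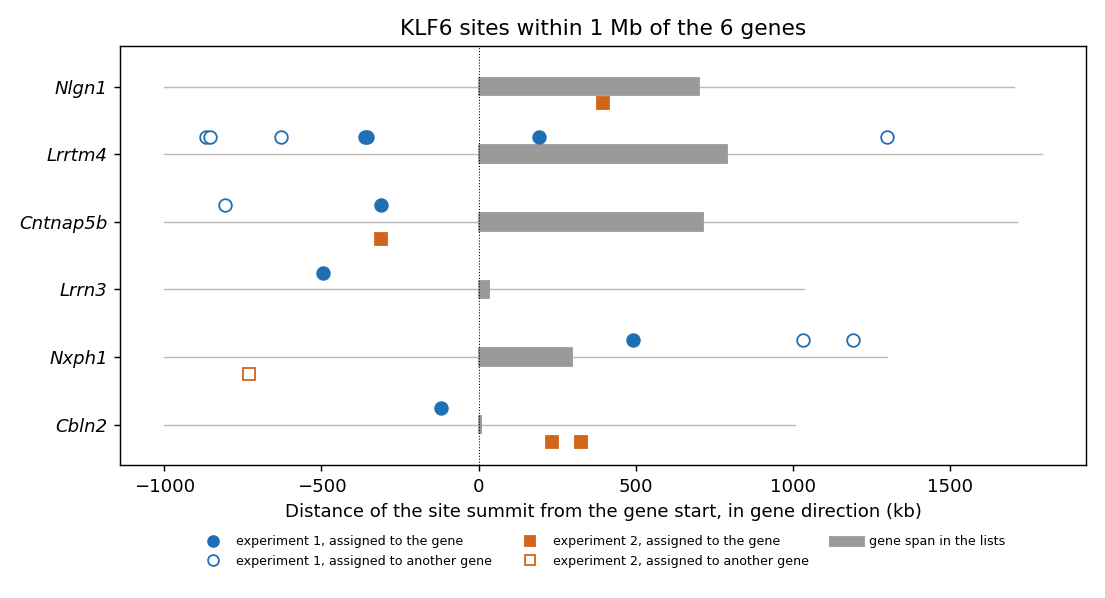
Position of sites within 1 Mb of each gene, as kb from the gene start in the direction of the gene; grey boxes are the gene spans, circles above the line are sites of experiment 1, squares below it sites of experiment 2, and open symbols are sites assigned to another gene. The 11 filled symbols all stand at least 120 kb from the start, and the symbols of both experiments stand at the same place at Cntnap5b alone.

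Of these genes, Cntnap5b had the site found in both experiments, and Lrrtm4 had the most sites in a single list. To show the kind of promoter these genes carry, the 250 bases before the RefSeq start are printed for Cntnap5b and Lrrtm4. They are RefSeq sequences of build GRCm38.p6, at chr1:99772151-99772400 on the plus strand and, for the first of the 2 windows of Lrrtm4, at chr6:80018627-80018876 on the plus strand. That build is not the build of the site lists, and whether these are the starts from which the lists counted distances was not tested. Capitals mark CACCC and GGGCGG on either strand (CACCC or GGGTG, and GGGCGG or CCGCCC, which may overlap in part), short forms of the letters that KLF and SP proteins recognise.
Cntnap5b: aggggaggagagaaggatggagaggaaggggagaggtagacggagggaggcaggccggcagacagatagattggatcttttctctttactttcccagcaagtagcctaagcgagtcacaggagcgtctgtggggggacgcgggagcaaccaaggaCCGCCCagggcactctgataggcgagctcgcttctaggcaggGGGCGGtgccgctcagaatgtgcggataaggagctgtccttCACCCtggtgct
Lrrtm4: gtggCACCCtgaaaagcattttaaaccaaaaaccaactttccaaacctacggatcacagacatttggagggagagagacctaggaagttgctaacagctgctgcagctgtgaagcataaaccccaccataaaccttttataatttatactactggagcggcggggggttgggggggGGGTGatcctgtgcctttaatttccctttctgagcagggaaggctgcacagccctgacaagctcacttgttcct

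The window of Cntnap5b held 1 CACCC-type and 2 GGGCGG-type matches at 60% GC. The printed window of Lrrtm4 held 2 CACCC-type matches and no GGGCGG-type match at 49.2% GC. Its other window, not printed, also held 2 CACCC-type matches and no GGGCGG-type match, at 54% GC. The median over the windows of all genes was 52.4% GC. RefSeq windows were read for 4 of the 6 genes. None was matched for Lrrn3, and the windows of the chromosome that carries Cbln2 were left out of this step. Among the 6 windows of these 4 genes, 5 held at least 1 match, the exception being 1 of the 2 windows of Nlgn1. Such letters were common: 52.1% of the 32536 distinct windows of all genes held CACCC or GGGTG, 33% held GGGCGG or CCGCCC, and 64.9% held either. The lists placed no site of the 6 genes at a start, and the bases under the sites themselves were not analysed here.

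Cntnap5b had the strongest site and the one place found in both experiments. In experiment 1 the site ran from 101357970 to 101358590 on chromosome 1 (mm9), 311 kb upstream of a gene of 713 kb (ENSMUSG00000067028, 101669342 to 102382519). It had 50 tags (exact Poisson 95% interval 37.1 to 65.9, for counting error alone), a fold enrichment over background of 30.0 and a false discovery rate (FDR) of 3.7%. In experiment 2 it ran from 101358198 to 101358355, with 15 tags (8.4 to 24.7), 23.9-fold enrichment and an FDR of 51.9%. Tag numbers of the experiments cannot be set against each other, because the read totals are unknown. Fold, as the caller's own ratio, ranked 11th of 742 in the first list and 17th of 901 in the second. Among the 112 overlapping pairs it also ranked 11th and 17th. Every site of higher fold in either list was thus shared as well, and sharing at this fold was not particular to Cntnap5b.

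The overlap at Cntnap5b was complete from the side of experiment 2. The 158 bp of its site lay wholly within the 621 bp of the site of experiment 1, of which they made up 25.4%, and the summits were 3 bp apart, against a median of 10.5 bp over all 112 overlapping pairs. The log2 fold of experiment 1 exceeded that of experiment 2 by 0.33, and experiment 1 had the higher fold in 64 of the 112 pairs. Among the 18 pairs beyond 100 kb from a gene start, Cntnap5b had the highest fold of experiment 1, ahead of 28.0, and the fourth highest of experiment 2, where the highest was 26.8. The median of these 18 pairs was 13.3-fold and 14.9-fold. In each experiment 1 site of the 6 genes was shared, that is 1 of 7 and 1 of 4, against 14.7% and 12.4% of all sites.

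**Figure D2:**
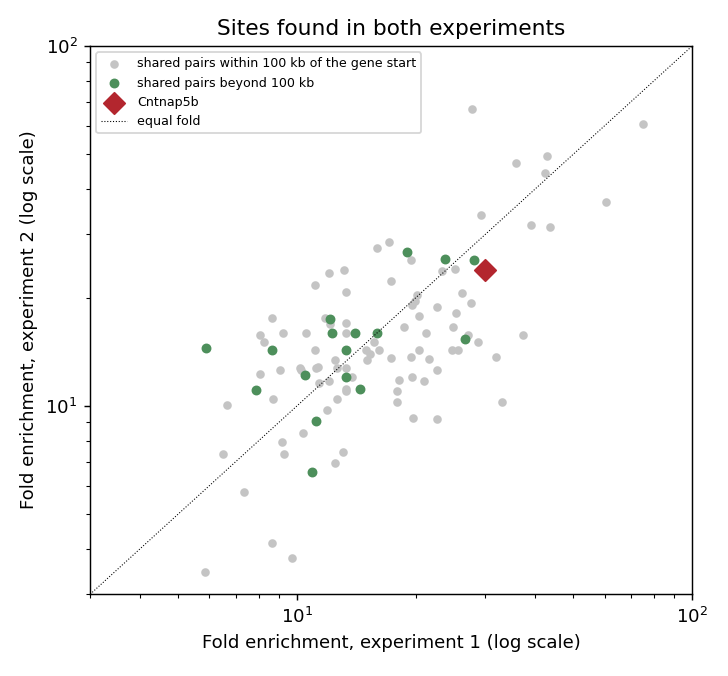
Fold enrichment in experiment 1 (x axis, log scale) and experiment 2 (y axis, log scale) at the 112 overlapping pairs; green points are the 18 pairs beyond 100 kb from the gene start, Cntnap5b among them drawn as the red diamond, and the dotted line is equal fold. The diamond stands at 30.0 and 23.9, at the upper right of the green points and just below the line.

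Measured by the log2 folds of both experiments, the 3 shared sites most like that of Cntnap5b among 52 others with a gene symbol were those of 4933434M16Rik, Hist1h4h and Nova1. The site of 4933434M16Rik, 123 kb downstream of its start, had 28.0-fold and 25.4-fold enrichment (distance of 0.13 in the plane of the log2 folds). That of Hist1h4h, a histone H4 gene, had 25.1-fold and 24.1-fold (distance 0.26). That of Nova1, which encodes a neuronal splicing regulator, had 27.6-fold and 19.3-fold (distance 0.33). The likeness rests on the 2 lists alone, and the site of Hist1h4h was 13.3 kb and that of Nova1 39.6 kb from the start, much nearer than at Cntnap5b.

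The postsynaptic neurexin partners had sites in 1 experiment each. Lrrtm4 (ENSMUSG00000052581, chromosome 6 from 79969042 to 80759183, a span of 790 kb) had 3 sites, all in experiment 1; 6 of the 276 symbols of that list had 3 or more. The first, from 79607151 to 79607792 and 362 kb upstream, had 20 tags (interval 12.2 to 30.9) and 7.99-fold enrichment. Its neighbour, from 79614857 to 79615380 and 354 kb upstream, had 17 tags (9.9 to 27.2) and 6.89-fold. These summits stood 7.65 kb apart. The third, from 80160207 to 80160656, lay inside the gene, 191 kb past its start, with 18 tags (10.7 to 28.4) and 6.19-fold.

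None of the 3 sites of Lrrtm4 had a counterpart near it in experiment 2. The nearest site of that list on the chromosome was between 2830 kb and 3091 kb from each summit. Most sites of experiment 1 had no counterpart: 14.7% of all its sites were shared, and 6.64% of those beyond 100 kb from a start. The score is the −log10 of the p-value that the peak caller gave, multiplied by 10. It was 58.1, 50.1 and 53.25, and the lowest score of any listed site was 50.02. The site 354 kb upstream thus stood at the edge of the list, at a peak caller's p-value of 9.77e-06. Within 1 Mb of the ends of Lrrtm4, experiment 1 listed 7 sites and experiment 2 listed 0. The other 4 of these 7 were assigned to U1 spliceosomal RNA genes, and the mean density of each list would place 0.823 and 1.00 sites in a window of 2.79 Mb. That window was taken because Lrrtm4 had sites, and the density is the mean over all chromosomes. The matching windows of the other genes held 0 to 3 sites per list, where the mean density would place 0.592 to 0.972.

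Nlgn1 (ENSMUSG00000063887, chromosome 3 from 25330763 to 26032656 on the minus strand, 702 kb) had a single site, in experiment 2. It ran from 25638573 to 25638855, inside the gene and 394 kb past its start, with 10 tags (interval 4.8 to 18.4) and 9.56-fold enrichment. The fold ranked 498th of 901, below the list's median of 10.0. The nearest site of experiment 1 was 4862 kb away, the largest such gap among the 6 genes, and no other site of either list fell within 1 Mb of Nlgn1. Exon positions of mm9 were not used here, so the sites inside Nlgn1 and Lrrtm4 are not placed on exons or introns.

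The secreted neurexin ligands, Nxph1 and Cbln2, had 4 sites, all outside the genes. The site of Nxph1 (ENSMUSG00000046178, chromosome 6 from 8900254 to 9197846) was found in experiment 1, from 9391548 to 9392133, 194 kb beyond the end of the gene and 491 kb from its start. It had 23 tags (interval 14.6 to 34.5), more than any other site of the 6 genes in that list but Cntnap5b, and yet the lowest fold, 5.14, at rank 675 of 742. The tags per fold and kb were 7.64 there, the highest of the 11 sites, against a median of 5.19 over the list. This quantity is a background if the tags were counted in the precipitated library, which the lists do not state.

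Cbln2 had sites in both experiments that did not overlap. The gene (ENSMUSG00000024647, chromosome 18 from 86880502 to 86887673) is short, at 7.17 kb. Experiment 1 gave a site from 86759875 to 86760287, 120 kb upstream, with 15 tags (interval 8.4 to 24.7) and 7.99-fold enrichment. Experiment 2 gave a site from 87112203 to 87112454, 232 kb past the start, with 10 tags (4.8 to 18.4) and 10.8-fold, and one from 87204437 to 87204695, 324 kb past it, with 10 tags and 9.03-fold. The sites of the experiments thus stood on opposite sides of the gene, the nearest summits 352 kb apart. By symbol Cbln2 recurred in both lists, but by position it did not.

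Lrrn3 (ENSMUSG00000036295, chromosome 12 from 42178308 to 42212555 on the minus strand, 34.2 kb) had 1 site, in experiment 1. It ran from 42707876 to 42708365, 496 kb upstream, which was the largest distance among the 11 sites. It had 17 tags (interval 9.9 to 27.2) and 7.17-fold enrichment, which is also the median fold of the list. No other site of either list lay within 1 Mb of the gene.

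Set in order of fold, the sites of experiment 1 were Cntnap5b at 30.0, Cbln2 and the first of Lrrtm4 at 7.99 each, Lrrn3 at 7.17, the other sites of Lrrtm4 at 6.89 and 6.19, and Nxph1 at 5.14. The 6 sites after Cntnap5b had 15 to 23 tags with overlapping counting intervals, all of which ended below the lower bound at Cntnap5b, 37.1. In experiment 2 the order was Cntnap5b at 23.9, Cbln2 at 10.8, Nlgn1 at 9.56 and Cbln2 at 9.03. There the interval at Cntnap5b, 8.4 to 24.7 tags, overlapped that of the other 3 sites, at 4.8 to 18.4. These intervals cannot serve as a test, because the sites were listed on the caller's cutoff and Cntnap5b stands highest among them. The median of the 6 genes' sites was 7.17-fold in experiment 1, equal to that of all sites, and 10.2-fold in experiment 2, against 10.0.

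**Figure D3:**
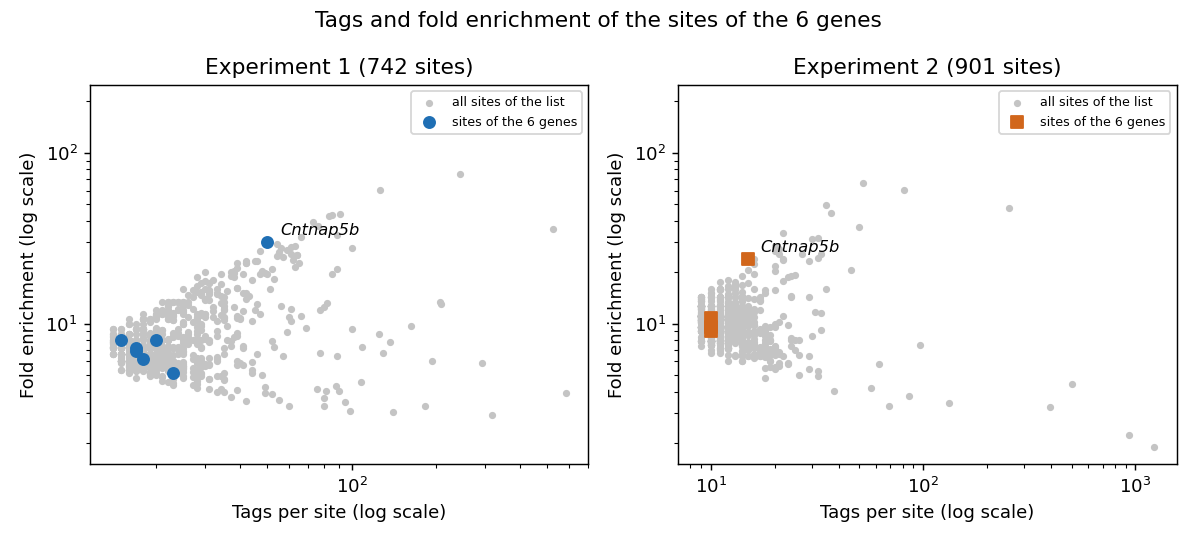
Tags per site (x axis, log scale) and fold enrichment (y axis, log scale) for all sites of each list (grey) and for the sites of the 6 genes (coloured), with 1 panel for each experiment. Cntnap5b stands apart at 50 tags and 30.0-fold in experiment 1 and at 15 tags and 23.9-fold in experiment 2, and the other coloured points lie in the mass of weak sites at 15 to 23 and at 10 tags.

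The FDR and score showed the same division. The FDR was 100%, its highest value, at 9 of the 11 sites, all but those of Cntnap5b. Below 100% were thus 1 of 7 sites in experiment 1 and 1 of 4 in experiment 2, against 21.3% and 3.22% of all sites. In experiment 2 an FDR of 100% was not confined to weak sites. The site with the highest fold of that list, 66.9, also had it, whereas a site of 11.15-fold had 53.6%. The 9 sites at 100% had scores from 50.1 to 58.3, and 54.0% of all sites in experiment 1 and 71.0% in experiment 2 scored below 60. Weak here means near the bulk of the list. The 2 sites of Cbln2 in experiment 2 scored 58.25 and 56.08, ranks 324 and 426 of 901, above that list's median of 55.74. The 9 sites at 100% were also the 9 sites without an overlap, each at least 352 kb from the nearest site of the other list. Lack of overlap was usual. Only 14.7% and 12.4% of all sites were shared, and 6.64% and 6.52% of those beyond 100 kb. The lists held 0.295 and 0.358 sites per Mb on average, and the gaps of all other unshared sites are not given here.

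Sites on chromosome 6 made up 4 of the 7 in experiment 1 (3 at Lrrtm4 and 1 at Nxph1) and 0 of the 4 in experiment 2. Chromosome 6 carried 10.1% of all sites in experiment 1 and 7.88% in experiment 2. In experiment 1 its sites had a median fold of 6.57 and a median of 5.72 tags per fold and kb, against 7.17 and 5.19 over the list, and 9.33% of them were shared. The part of that difference in the sites at Lrrtm4 and Nxph1 was not tested.

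The 6 genes were also set beside other groups of sites, most of them remote. Sites beyond 100 kb from a start, of which there were 271 and 276, had median folds of 6.66 and 10.4, and 6.64% and 6.52% of them were shared. An FDR below 100% was given to 9.59% and 1.45% of them. Sites of cadherin and protocadherin genes, 10 in experiment 1 and 4 in experiment 2, had medians of 6.66-fold and 10.3-fold, and 0 were shared. One of the 4 lay 8.59 kb from its start and the others beyond 100 kb. The glypican genes Gpc5 and Gpc6, which encode cell-surface heparan sulphate proteoglycans, had 6 sites and 1 site, at a median of 9.81-fold and at 10.4-fold, and 0 were shared. The 6 sites of the synaptic genes other than Cntnap5b in experiment 1, at 5.14-fold to 7.99-fold, fell within the range of the cadherin sites, 4.82-fold to 15.3-fold.

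**Figure D4:**
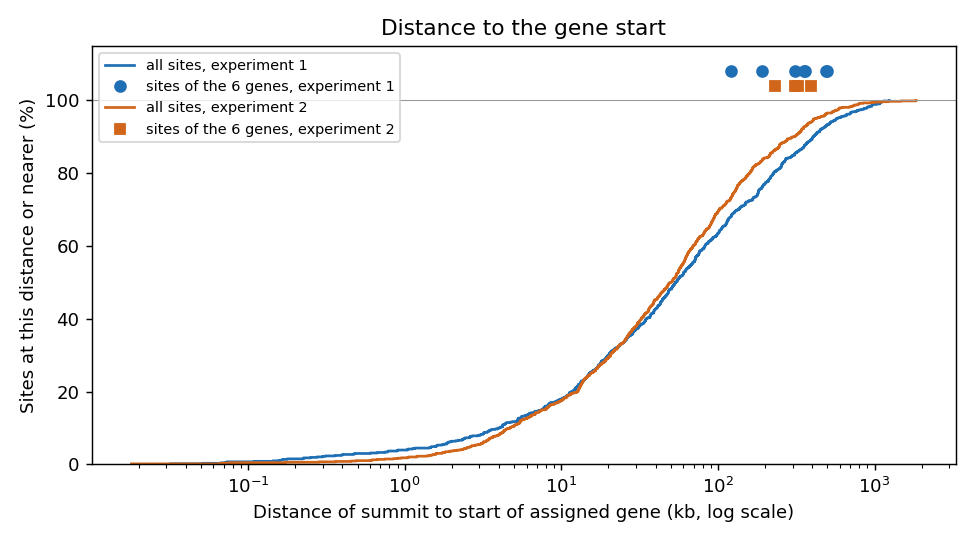
Cumulative percent of all sites (y axis) by distance of the summit to the start of the assigned gene (x axis, kb, log scale) for experiment 1 (blue) and experiment 2 (orange), with the 7 and 4 sites of the 6 genes marked above. The marks run from 120 to 496 kb, to the right of the medians of all sites at 53.6 and 50.4 kb. The genes were picked in gene-poor stretches, so their place on this axis describes that choice.

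A wider list of 105 genes of synaptic adhesion was then read. Of these, 16 had a site by symbol, 9 in experiment 1 and 10 in experiment 2, and 3, Cntnap5b, Cbln2 and C1ql2, had sites in both. Beside the 6 genes, 10 of 99 had a site (10.1%), against 2.22% of the 21900 protein-coding genes of the reference table; gene length and the size of the gaps between genes were not adjusted for, and the list was drawn up with these results known. Sites were listed at members of 11 families of the list, and none by symbol at the neurexins, the latrophilins or the IgLON proteins.

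C1ql2, which encodes a secreted C1q-like synaptic organiser of the family of Cbln2, was the other gene of the wider list with a shared site. Its site, 20.7 kb upstream on chromosome 1, had 51 tags, 16.0-fold enrichment and an FDR of 2.22% in experiment 1, and 11 tags, 15.9-fold and 100% in experiment 2. C1ql3, Flrt2 and Mdga2 each had a site at 11.2-fold in experiment 2 alone, those of Flrt2 and Mdga2 inside the gene. Lrrtm2, a relative of Lrrtm4, had one at 10.3-fold, 45.6 kb upstream, and Lrrn1, a relative of Lrrn3, one at 9.56-fold, 111 kb upstream, both in experiment 2, whereas the sites of Lrrtm4 and Lrrn3 were in experiment 1.

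Of the other 4 genes, Cntnap2, Cntn6 and Slitrk3 had sites of 4.56-fold to 7.48-fold in experiment 1, where the median of all sites was 7.17. Lrrc4 had a site of 7.74-fold in experiment 2, where that median was 10.0. Of the 12 sites of these 10 genes, 11 had an FDR of 100%, 5 lay beyond 100 kb and 3 lay inside the gene. A further 4 genes of the list, Cntnap4, Cntn4, Tenm2 and Cadm2, had 8 sites that carried a description and no symbol, none of them shared, so the counts by symbol are lower limits.

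**Figure D5:**
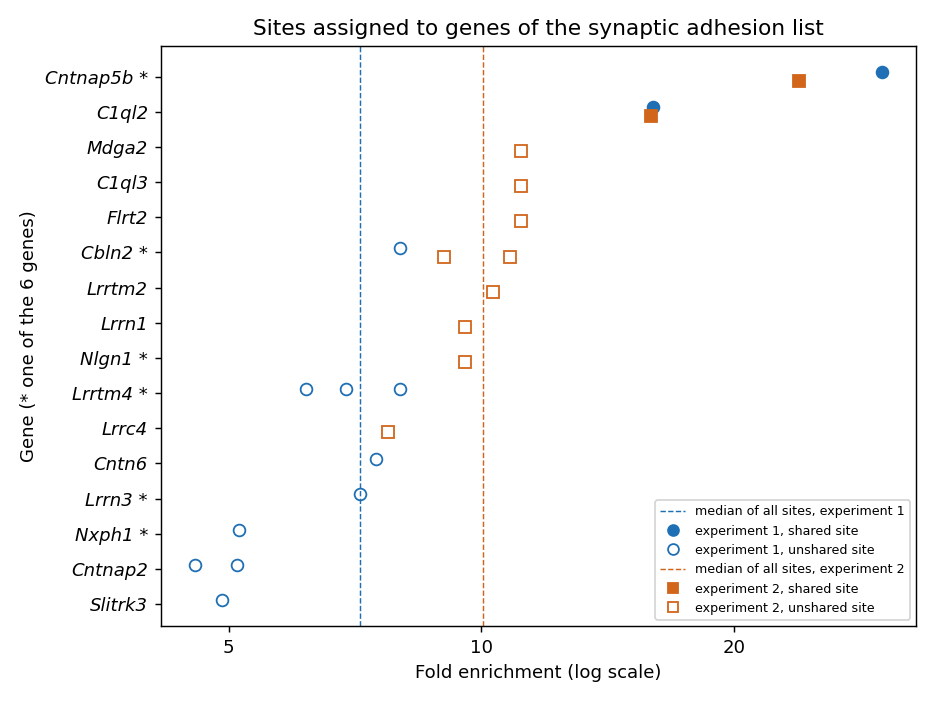
Fold enrichment (x axis, log scale) of every site assigned by symbol to the 16 genes of the wider list, with circles for experiment 1, squares for experiment 2, filled symbols for shared sites and dashed lines at the medians of all sites, 7.17 and 10.0. The filled symbols belong to Cntnap5b and C1ql2, and the 6 genes are marked with an asterisk.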

How the data were processed

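The authors deposited 2 annotated lists of KLF6 sites, from ChIP against input, for experiment 1 (both runs pooled) and experiment 2. MACS 1.3.6 and mm9 are named, without a role, per the submitters' processing notes; neither aligner and parameters nor read totals are given in the sources used here. Per the file headers, each site has a tag count, a fold enrichment (a ratio), an FDR in percent and a score, 10 times −log10 of the caller's p-value; all are the authors' values. Symbols stood at 41.4% and 42.6% of sites.

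Sites were matched to the 6 genes by symbol, and overlaps of at least 1 bp were found in Python 3.11.15 with pandas 2.3.3; the overlap code was tested on simulated data. Widths count both end bases. Poisson intervals (SciPy 1.17.1) cover counting error alone. Tags were also divided by fold and width (tags per fold and kb); in which library tags were counted is not stated. Motif shares refer to distinct windows.

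The 6 genes, the wider list and the descriptions were chosen with earlier results of these data known. Named were all 6 genes and, among shared sites with a gene symbol, the 3 nearest to a shared one of theirs in log2 fold. Genes of the wider list with a site were also named. Of these, values are given for the 10 of highest fold, and the other 4 are given by range within each list. A gene of the wider list as first drawn up is not reported here. Genes whose sites carry no symbol are not in the counts by symbol.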

Additional observations from a re-analysis of the deposited data

How the results depend on the processing

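Of 28 alternatives, 23 were planned and 5, which leave out Cntnap5b or add genes named by description, were chosen after seeing the data. In 12 the count or median was within 1.5 times its reported value and in 16 it moved. The 11 sites became 7 or 4 in experiment 1 or 2 alone, 4 in the higher-scoring 50% of sites, 2 at an FDR below 100% and 2 when sites inside a gene or within 100 kb of its ends were counted. The shared site was kept in the higher-scoring 50%, at an FDR below 100% and with summits within 100 bp or 1 kb. The count near the genes left 0 shared sites, and 50% overlap of each site also left 0, since the narrow site of experiment 2 covers 25.4% of that of experiment 1. Genes with sites in both lists fell from 2 to 1 in the higher-scoring 50% and at an FDR below 100%, and to 0 near the genes. The median fold became 30.0 in experiment 1 among higher-scoring and among shared sites, and 23.9 in experiment 2 among shared sites, each from Cntnap5b alone. The 16 genes of the wider list became 10 inside the gene or within 100 kb of its start, 7 among higher-scoring sites and 2 with shared sites. No paired analysis was possible because each group has 1 sample and the lists hold no values per library. Unknown read totals limit what absence from a list means.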
